A study of Homo sapiens with 6 samples.

Results

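HEK293T cells given 2 µg of a plasmid that carries the cloned cluster of miR-23a, miR-27a and miR-24-2 were compared here with untransfected HEK293T cells, to ask which messages differ once the cluster is supplied. HEK293T derives from human embryonic kidney and expresses the large T antigen of the virus SV40. The comparison rests on 4 bead arrays, with 2 labelled as biological duplicates in each group. Another 2 arrays, from cells given 4 µg of the same plasmid, entered the model to estimate each gene's spread and compare the doses. They also took part in the normalization, the probe choice and the set of genes tested, of which 243 were kept through them alone. No group received an empty plasmid, so the transfection itself and the cluster cannot be told apart. All 6 arrays lay on 1 chip, with neighbouring positions for the duplicates, so position and group cannot be told apart either. Members of the comparison were the genes detected, with a detection p-value under 0.01, on both control arrays or on both 2 µg arrays. They numbered 7775 of the 8018 genes tested in the series and of the 18774 genes with a named probe. Of these members, 6862 were detected on all 4 arrays.

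A microRNA is a short RNA that guides the Argonaute proteins to messenger RNAs, mostly through pairing of its seed, the stretch of bases near its 5′ end, and paired messages are usually translated less and decay sooner. The cluster of miR-23a, miR-27a and miR-24-2 is transcribed as a single RNA on chromosome 19 and is known from blood, muscle and fat cells.

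The mature sequences that the plasmid is meant to supply, from RefSeq on GRCh38.p14, are shown because their seeds define what the cluster could pair with. Capitals mark the seed, bases 2 to 8 from the 5′ end. miR-23a-3p lies at chr19:13836595-13836615, miR-27a-3p at chr19:13836447-13836467 and miR-24-3p at chr19:13836289-13836310, all on the minus strand.
miR-23a-3p: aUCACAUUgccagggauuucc
miR-27a-3p: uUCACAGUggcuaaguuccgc
miR-24-3p: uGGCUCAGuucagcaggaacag
The seeds of miR-23a-3p and miR-27a-3p shared 6 of their 7 bases and differed by U7G, counted from the 5′ end with the base of miR-23a first. The seed of miR-24-3p shared 0 aligned bases with either. The arrays measured messenger RNA, and no probe in the platform table was assigned to these microRNAs, so their level in the cells was not measured here.

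Each array read 48701 probes from a median of 40 beads per probe, with a median bead standard error between 4.22% and 4.39% of the signal on the 4 arrays. Between 9278 and 9721 probes were detected per array. Values below are normalized intensities, that is background-corrected and quantile-normalized bead signals on a linear scale, and the lowest intensity of a detected probe was between 85.9 and 91.8. Log2 fold changes are 2 µg minus control with their standard error (SE, n = 2 arrays per group), and a gene was called, and is said to rise or fall, at an adjusted p under 0.05 in limma after Benjamini-Hochberg adjustment over the 8018 genes. Among members on all 4 arrays the duplicates differed by a median of 0.14 on the log2 scale in the control and 0.16 at 2 µg, whereas the groups differed by a median of 0.31. Markers of an embryonic kidney line were partly present. CDH2, EYA1, KRT8, KRT18, SALL2, TUBB3 and VIM were detected on all 4 arrays, while PAX2, LHX1, SALL1, SIX2, NES, INA, CD24 and EPCAM were detected on none. None of the 10 measured markers of mature kidney tubules and podocytes was detected on any array. Of 10 haematopoietic markers only CD68 and HBA1 were detected, and the leukocyte antigen PTPRC was not. This list summed to 744 and 742 in the control and to 850 and 981 at 2 µg. The 6 hepatocyte markers summed to 322 and 327 in the control and to 391 and 362 at 2 µg. Of them 1 and 0 were detected on the control arrays and 1 on each 2 µg array, and AFP and APOA1 on none. The 6 endothelial markers summed to 269 and 262 in the control and to 360 and 351 at 2 µg. Of them 0 were detected on either control array and 1 and 2 on the 2 µg arrays, and PECAM1 and CDH5 on none. The sums of both lists thus include signal from undetected genes. Of the endothelial list VWF, which encodes von Willebrand factor, was the member that rose. It was detected on no control array and read 45.6 and 48.1 there, against 131.4 and 109.1 at 2 µg, at least 1.38-fold higher. The part of these lists in the results was not tested.

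The response to 2 µg was broad. Of all tested genes 41.6% were called, 21.8% higher and 19.9% lower, and among the members 3307 of 7775 were (42.5%), 1724 higher (22.2%) and 1583 lower (20.4%). Counts within a gene list are read against these shares of the members. Members detected on all 4 arrays could be called without help from the detection rule, and of these 2760 were called (40.2%), 1465 higher (21.3%) and 1295 lower (18.9%). A further 4102 were not called. Their median log2 fold change was 0.03, and 9 in 10 lay between -0.83 and 0.84. Most changes were modest, since 825 called genes rose and 761 fell by over 1.5-fold, 183 rose and 197 fell by over 2-fold, and only 15 rose and 5 fell by over 4-fold. Both arrays of 1 group lay above both of the other for 4785 of the 6862 genes (69.7%) and for 69.6% of all tested genes, so that separation alone was common. Calls were made at every signal level: with these members split into 3 equal groups by signal, 36.9% of the dimmest were called, 45.3% of the middle group and 38.5% of the brightest. In this bulk measurement, fewer cells of a type and less RNA per cell cannot be told apart.

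**Figure D1:**
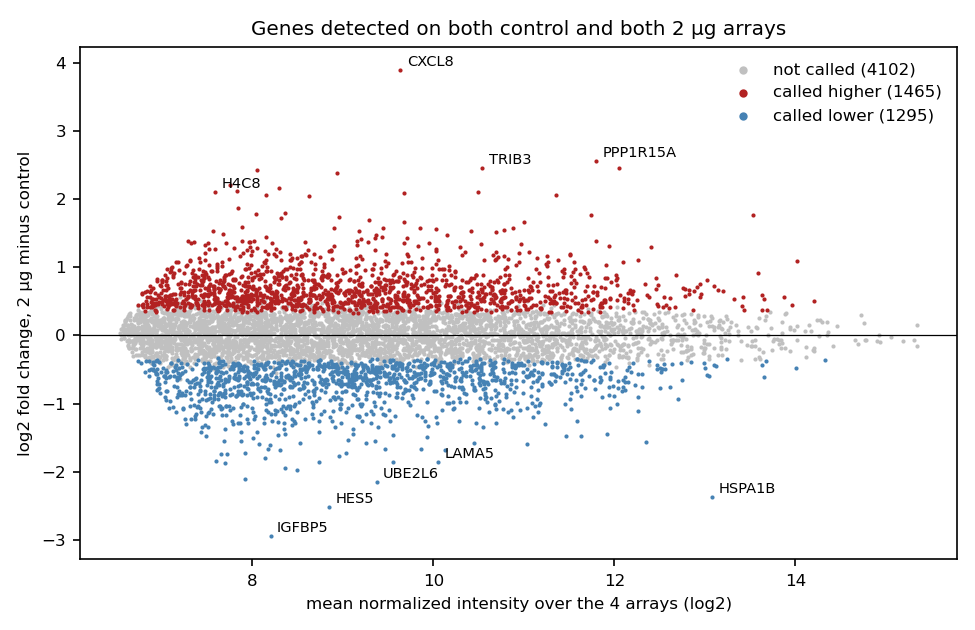
Log2 fold change (2 µg minus control, vertical axis) against the mean log2 normalized intensity over the 4 arrays (horizontal axis) for the 6862 genes detected on all of them. Each point is a gene, red where called higher (1465), blue where called lower (1295) and grey where not called (4102). CXCL8 stands alone at the top with 3.89 and IGFBP5 at the bottom with -2.94.

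CXCL8, which encodes the neutrophil attractant interleukin-8, had the largest rise of the genes detected on all 4 arrays. It read 206 and 208 on the control arrays, against 2913 and 3215 at 2 µg. All 4 values were far above the detection floor, the groups did not overlap, and the gene rose by 3.89 (SE 0.12), or 14.8-fold (adjusted p = 8.95e-08). CCL20, a chemokine that attracts lymphocytes and dendritic cells, was detected on no control array. It read 63.8 and 74.0 on the control arrays, against 438 and 453 at 2 µg, at least 5.12-fold higher. Its adjusted p of 1.01e-06 is that of the limma fit to these readings, not of the bound. IL32, a pro-inflammatory cytokine, read 88.4 and 74.2 in the control against 507 and 537 at 2 µg and rose by 2.69 (SE 0.14), with detection on 1 of the 2 control arrays. CXCL1, another neutrophil attractant, was near the floor in the control and rose by 1.73 (SE 0.13). Of the 41 chemokines and cytokines listed, 15 were members, of which 10 rose, 1 fell (CXCL16, a membrane-bound chemokine, by 0.64) and 4 were not called. Only 6 of the 15 were detected on all 4 arrays, and these had a median log2 fold change of -0.20. Of the 10 rises 8 were in genes not detected on both control arrays, such as TNF, at least 2.02-fold higher, and IL12A, a subunit of interleukin-12, which rose by 1.47 (SE 0.13) from a level detected on 1 control array. With the test restricted to genes detected on every 1 of the 6 arrays, 2 of this list rose, and without 2 µg replicate 1 the falls numbered 2.

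NF-kB is a family of transcription factors held inactive by inhibitor proteins that its own activity induces. The precursor subunit NFKB1 read 2030.3 and 1706 on the control arrays, against 6272 and 6441 at 2 µg and rose by 1.77 (SE 0.14). The subunit gene RELB was not detected in the control and was at least 1.53-fold higher. The inhibitors moved in the same direction. TNFAIP3, the ubiquitin-editing enzyme A20, read 69.4 and 79.0 on the control arrays, against 759.6 and 697 at 2 µg. No control array was above the detection threshold, so it was at least 8.37-fold higher. The adjusted p of 4.33e-07 is that of the limma fit to these readings, not of the bound. NFKBIA, the inhibitor IkB-alpha, read 1818 and 2028 in the control against 4299 and 4453 at 2 µg and rose by 1.19 (SE 0.13), NFKBIE rose by 1.08 and NFKBIB rose by 1.06. IER3, an early response gene of the same pathway, rose by 1.66 (SE 0.15). In all of these genes both 2 µg values were above both control values. Of 20 measured subunits, inhibitors and adaptors 14 rose and 0 fell, with a median of 0.52 over the 16 detected on all 4 arrays, against 0.03 over all tested genes. MAP3K7, an upstream kinase, was not called (log2 fold change 0.06, SE 0.15), nor was the scaffold IKBKG (0.19, SE 0.12). The count of rises was 9 without control replicate 1.

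Promoters of these genes are shown because the members moved together. Each window runs from 250 bases before to 50 bases after the annotated start, from RefSeq on GRCh38.p14, 5′ to 3′ on the gene's strand, and capitals mark matches to any of 4 motifs searched on both strands. The motifs were an NF-kB-type site (GGG, any 2 bases, TTTCC), the AP-1 site (TGANTCA), the cyclic AMP response element (TGACGTCA) and a C/EBP-ATF response element (CARE-type, TGATGNAA). The first window is that of CXCL8 (chr4:73740319-73740618, plus strand), with an AP-1 match starting 137 bases before the start site. The second is that of TNFAIP3 (chr6:137867009-137867308, plus strand), with NF-kB-type matches that start 67 and 55 bases before it. The matches do not overlap. Only exact matches are marked, and the stretch tggaatttcc in the CXCL8 window differs from the NF-kB-type pattern only in its first base.
CXCL8: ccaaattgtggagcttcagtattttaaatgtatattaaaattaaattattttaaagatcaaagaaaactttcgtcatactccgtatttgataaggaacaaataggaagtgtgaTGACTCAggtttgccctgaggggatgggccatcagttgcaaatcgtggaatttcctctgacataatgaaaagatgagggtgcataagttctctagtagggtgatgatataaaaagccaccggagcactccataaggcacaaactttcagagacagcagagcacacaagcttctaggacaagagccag
TNFAIP3: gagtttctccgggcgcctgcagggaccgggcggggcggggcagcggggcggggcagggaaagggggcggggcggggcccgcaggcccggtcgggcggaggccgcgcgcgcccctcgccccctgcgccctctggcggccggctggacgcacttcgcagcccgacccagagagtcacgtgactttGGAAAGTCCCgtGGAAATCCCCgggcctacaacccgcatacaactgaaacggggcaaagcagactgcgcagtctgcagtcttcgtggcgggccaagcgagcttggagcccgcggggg
An NF-kB-type match occurred in 4 of the 10 NF-kB genes that rose and have a promoter in the table (NFKB1, NFKBIA, NFKBIZ and TNFAIP3) and in 3 of the 8 cytokines that rose (CXCL1, CCL20 and IL32). Among all 27305 genes with a promoter in the table the share was 1.92%, and among members on all 4 arrays it was 2.38% of the 5807 with a promoter. These matches describe letters in a short window and do not show binding.

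Immediate early genes, which are transcribed within minutes of a stimulus, rose with them. ATF3, a stress-induced transcription factor that pairs with Jun proteins, read 1972 and 1676 on the control arrays, against 11096 and 8936 at 2 µg. Its groups were well separated and it rose by 2.45 (SE 0.15), a 5.48-fold rise (adjusted p = 3.08e-06). The growth arrest gene GADD45B read 238 and 191 in the control against 1164 and 1065 at 2 µg and rose by 2.38 (SE 0.14), and its relative GADD45A rose by 2.05 (SE 0.17). FOS, a subunit of AP-1, read 129 and 155 in the control against 406 and 578 at 2 µg and rose by 1.78 (SE 0.18), with the 2 µg duplicates further apart than the control duplicates. The matrix signalling genes CCN1 and CCN2 rose by 1.49 and 1.53. Of 20 members 15 rose and 0 fell, and the median over the 16 detected on all 4 arrays was 1.04. EGR1, a zinc-finger factor induced by serum, read 1570.2 and 1315 in the control against 2685 and 1565 at 2 µg; the groups overlapped, and it was not called (log2 fold change 0.51, SE 0.22, adjusted p = 0.0873). PHLDA1, a negative regulator of receptor tyrosine kinases, was undetected in the control and at least 3.29-fold higher.

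Genes that feed back on the ERK kinases also rose, while a pair of receptor genes above that pathway fell. ETV5, a transcription factor induced by fibroblast growth factor signalling, read 84.1 and 89.3 on the control arrays, against 688 and 845 at 2 µg and rose by 3.14 (SE 0.14), with detection on 1 of the 2 control arrays. The phosphatase DUSP5, which inactivates ERK in the nucleus, read 288 and 287 in the control against 607 and 670 at 2 µg and rose by 1.15 (SE 0.13). The inhibitors SPRED2 and SPRED1 rose by 0.84 and 0.77, and SPRY1 and SPRY2 by 0.45 and 0.41. By contrast, the receptor gene FGFR3 read 2808 and 2564 in the control against 1239 and 1218 at 2 µg and fell by 1.13 (SE 0.12), and the receptor gene ERBB3 was detected on both control arrays and on no 2 µg array, at least 1.73-fold lower. In all, 12 of 15 members rose, 2 fell and 1, DUSP8, was not called. Of the 10 detected on all 4 arrays, 8 rose and 1 fell, with a median of 0.65. Of 13 kinases and scaffolds of the JNK and p38 cascades, 1 rose (MAPKAPK5, by 0.62) and 4 fell. MAP3K6, an activator of these cascades, fell by 1.18 (SE 0.13). Without control replicate 1, 2 of these kinases fell, and MAPKAPK5 was then not called (adjusted p = 0.0699).

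**Figure D2:**
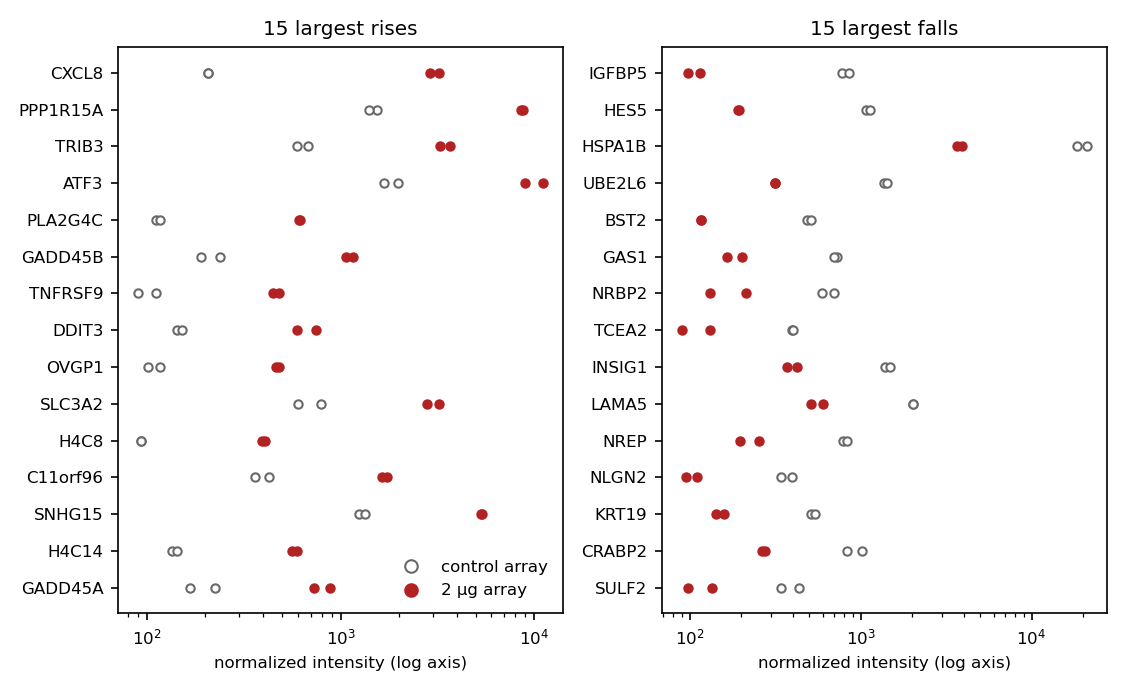
Normalized intensity on each array (horizontal log axis) for the 15 genes with the largest rise (left) and the 15 with the largest fall (right) among called genes detected on all 4 arrays. Open circles are the 2 control arrays and red circles the 2 arrays at 2 µg; the groups do not overlap for any of these genes, nor for any other called gene detected on all 4 arrays.

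The integrated stress response stops most translation when a kinase phosphorylates eIF2alpha, while the factor ATF4 raises genes for amino acid supply and for recovery. PPP1R15A, the phosphatase subunit that reverses this phosphorylation, read 1538 and 1404 on the control arrays, against 8523 and 8760.5 at 2 µg. Duplicates were close in both groups and the gene rose by 2.56 (SE 0.13), a 5.88-fold rise (adjusted p = 1.07e-06). TRIB3, a pseudokinase that restrains ATF4, read 598 and 681 in the control against 3695 and 3278 at 2 µg and rose by 2.45 (SE 0.13). DDIT3, the factor CHOP, which can promote cell death, read 143 and 153 in the control against 746 and 593 at 2 µg and rose by 2.17 (SE 0.14). For both genes every 2 µg value was more than 3-fold above every control value. ATF4 itself, which is controlled mainly at translation, was bright in both groups (11812 and 12845 in the control against 18703 and 17977 at 2 µg) and rose by a smaller 0.57. CEBPG and CEBPB, which encode partners of ATF4, rose by 1.51 and 1.07, and the secreted glycoprotein STC2 by 1.58. Of the kinases that phosphorylate eIF2alpha, EIF2AK3 (PERK) rose by 0.60, EIF2AK4 (GCN2) fell by 0.88, and EIF2AK2 (PKR) and EIF2AK1 (HRI) were not called, with log2 fold changes of -0.13 (SE 0.16) and -0.37 (SE 0.20). Of 31 measured genes of this response 20 rose and 3 fell (EIF2AK4, CDKN1A and TXNIP), with a median of 0.59 over the 28 on all 4 arrays. TXNIP, a regulator of glucose uptake, lost its call in 5 alternatives, leaving out either control array or 2 µg replicate 2 among them.

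Genes of amino acid supply rose at several steps. CTH, the last enzyme of cysteine synthesis, read 252 and 256 on the control arrays, against 621 and 588 at 2 µg and rose by 1.25 (SE 0.12). ASNS, asparagine synthetase, read 1544 and 1726 in the control against 3926 and 3369 at 2 µg and rose by 1.16 (SE 0.13). In serine and folate metabolism, PSPH rose by 0.98, PSAT1 by 0.73, MTHFD1L by 1.14 and MTHFD2 by 0.68, whereas PHGDH, the first enzyme of serine synthesis, read 6398 and 6227 in the control against 6957 and 7104 at 2 µg and was not called. CBS, which acts just before CTH, went the other way and fell by 0.63. Of 15 enzymes 10 rose and 3 fell (CBS, SHMT1 and BCAT2), with a median of 0.48. The number that fell was 1 without either control array. Among 16 amino acid transporters 7 rose and 2 fell, and 1 fell in 9 of the 20 alternatives, among them those without either control array, 2 µg replicate 1 or either 4 µg array. SLC3A2 is the heavy chain shared by several exchangers. Its brightest probe read 797 and 604 in the control against 3227 and 2780.5 at 2 µg and rose by 2.11 (SE 0.16), but its other kept probe was not called (0.07, adjusted p = 0.736). Its partner SLC7A5 rose by 1.18 (SE 0.15), and the carrier of basic amino acids SLC7A1 rose by 1.10 (SE 0.15).

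Enzymes that load amino acids onto tRNAs were counted by compartment. GARS1, the glycine enzyme, read 2677 and 2679.7 on the control arrays, against 5076 and 5973 at 2 µg and rose by 1.04 (SE 0.13), and YARS1, the tyrosine enzyme, read 2149 and 2192 in the control against 4268 and 4232 at 2 µg and rose by 0.97 (SE 0.12). CARS1 rose by 1.02, TARS1 by 0.92 and SARS1 by 0.89. Of 19 cytosolic synthetases 10 rose and 0 fell, with a median of 0.41, and QARS1, HARS1 and EPRS1 were among the 9 not called, with log2 fold changes of -0.34, -0.08 and 0.07. Of 13 mitochondrial synthetases 3 rose and 1, AARS2, fell by 0.81. Whether the compartments differ was not tested. Without control replicate 1 the cytosolic rises numbered 6 and the mitochondrial rises 1, and without 2 µg replicate 2 the mitochondrial rises also numbered 1 and the falls 2. In 9 of the 20 alternatives 1 or 2 cytosolic synthetases fell, and 1 did so without either 4 µg array.

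Promoters with a CARE-type match are shown for an enzyme of each group, because CARE sites are known to bind ATF4 with C/EBP proteins. The ASNS window lies at chr7:97872359-97872658 on the minus strand, with its match 68 bases before the start, and the TARS1 window at chr5:33440715-33441014 on the plus strand, with its match on the opposite strand from base 3 after the start. Each of these genes has 2 annotated starts in the table, and the first listed was used.
ASNS: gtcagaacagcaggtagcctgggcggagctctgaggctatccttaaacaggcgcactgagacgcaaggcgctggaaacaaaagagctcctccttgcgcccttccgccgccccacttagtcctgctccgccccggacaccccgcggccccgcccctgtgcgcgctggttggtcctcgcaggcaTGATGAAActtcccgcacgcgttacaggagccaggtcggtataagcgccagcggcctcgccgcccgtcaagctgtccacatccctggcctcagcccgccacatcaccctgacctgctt
TARS1: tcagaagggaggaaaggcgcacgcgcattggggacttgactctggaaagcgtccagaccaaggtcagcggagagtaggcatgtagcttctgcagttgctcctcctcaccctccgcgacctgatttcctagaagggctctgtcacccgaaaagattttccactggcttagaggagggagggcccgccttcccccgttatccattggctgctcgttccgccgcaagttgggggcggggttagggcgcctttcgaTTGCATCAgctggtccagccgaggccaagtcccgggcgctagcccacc
Such a match occurred in 5 of the 8 cytosolic synthetases that rose and have a promoter in the table (AARS1, CARS1, IARS1, MARS1 and TARS1) and in 1 of the 8 that were not called (NARS1). It occurred in 4 of the 8 amino acid enzymes that rose (ASNS, MTHFD1L, GOT1 and BCAT1), in 0 of 2 that fell and in 0 of 2 not called. Among genes of the integrated stress response that rose, it occurred in 4 of the 19 with a promoter (PPP1R15B, CARS1, HERPUD1 and ASNS), or 21.1%. The windows of TRIB3, DDIT3, CEBPG and PPP1R15A held no such match. The share among all promoters in the table was 3.67%, and among members on all 4 arrays 1.81%. The counts are small and describe these windows only.

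**Figure D3:**
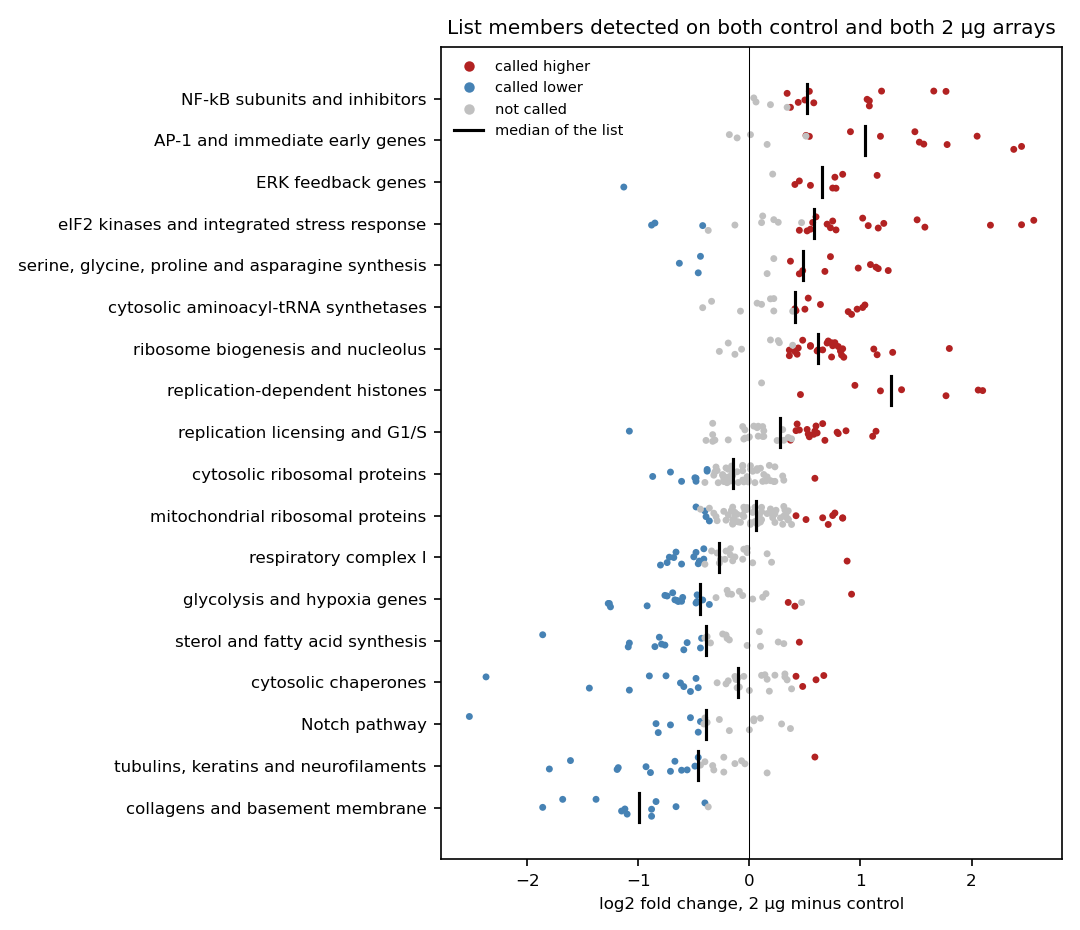
Log2 fold change (2 µg minus control, horizontal axis) of each gene detected on all 4 arrays in 18 gene lists. Red points were called higher, blue points called lower and grey points not called, and the black bar is the median of the list. Medians run from 1.27 for replication-dependent histones to -0.99 for collagens and basement membrane.

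Most measured genes that build ribosomes rose, and few genes of the ribosomal proteins themselves were called. RRP12, which helps export both ribosomal subunits, read 162 and 193 on the control arrays, against 661 and 571 at 2 µg and rose by 1.80 (SE 0.17). DDX21, a nucleolar helicase, read 3277 and 3676 in the control against 7895 and 9159 at 2 µg and rose by 1.29 (SE 0.14), and NOC3L read 1127 and 1124 in the control against 2604 and 2400.4 at 2 µg and rose by 1.15 (SE 0.12). Control and 2 µg values were apart for each of these genes. NCL, the abundant nucleolar protein nucleolin, rose by 0.83, and the small nucleolar RNA proteins NOP56, NOP58 and DKC1 rose by 0.48, 0.55 and 0.62. Of 36 measured biogenesis genes 28 rose and 0 fell, with a median of 0.62, and across 20 alternative analyses between 20 and 30 rose, while 1 fell without 2 µg replicate 2. Of 59 cytosolic ribosomal proteins 1 rose (RPL37, by 0.59) and 8 fell, and 50 were not called. RPS21 fell by 0.87 (SE 0.14) and RPL14 fell by 0.71 (SE 0.15), and the median was -0.15. The number that fell was 3 without control replicate 2, 5 without either 2 µg array and 19 when arrays were scaled to the median of the tested genes, and probes of ribosomal protein genes can also bind their many pseudogenes. Among 71 mitochondrial ribosomal proteins 8 rose and 4 fell, with a median of 0.06. The rises there numbered 13 with the authors' processed values, and 0 fell without control replicate 1 and 2 without either 4 µg array, control replicate 2 or 2 µg replicate 1.

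Replication-dependent histone genes, whose messages mostly lack a poly(A) tail, gave the highest list median, 1.27. Of 52 on the arrays 10 were members, and whether their signal came from messages with or without a tail was not tested. H4C8 read 93.3 and 93.3 on the control arrays, against 406 and 392 at 2 µg and rose by 2.10 (SE 0.12), H4C14 read 136 and 143 in the control against 596 and 564 at 2 µg and rose by 2.06 (SE 0.15), and the linker histone H1-2 rose by 1.18 (SE 0.13). H4C3, by far the brightest, read 4836 and 8574 in the control against 21264 and 22626 at 2 µg, with control duplicates far apart but both below both 2 µg values, and it rose by 1.77 (SE 0.23). Of 10 measured histone genes 9 rose, 0 fell and 1, H2BC12, was not called. Of the 8 detected on all 4 arrays, 7 rose. Because histone genes are near-identical copies, a probe can bind several of them.

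In the lists of G1/S and of G2/M genes, the shares called with both directions pooled were near or below the 42.5% of all members. The calls in both lists were mostly rises, beside 22.2% higher and 20.4% lower over all members. CDT1 and CDC25A, which license origins and start S phase, read 1112 and 1136 in the control against 2567 and 2294 at 2 µg and 555 and 718 in the control against 1430.1 and 1352 at 2 µg. Both were higher on each 2 µg array, and they rose by 1.11 and 1.14. The S phase factors E2F2 and E2F1 rose by 0.87 and 0.80, while the cyclin CCND2 fell by 1.08 and MCM2, a subunit of the replicative helicase, was not called (-0.04). In all, 18 of 47 genes of licensing and G1/S rose and 1 fell (median 0.28), and 11 rose without control replicate 2. The falls there ran from 1 to 6 over the alternatives, with 6 without 2 µg replicate 1 and 2 without 2 µg replicate 2. Mitosis and G2/M gave 11 rises and 2 falls among 38 members (median 0.25). NDC80, of the kinetochore, rose by 0.99, while the kinesin KIF20A fell by 0.58. The mitotic rises numbered 4 without either control array, 7 without 2 µg replicate 1 and 6 without 2 µg replicate 2, and the mitotic falls 1 without either control array or 2 µg replicate 2. Targets of p53 and inhibitors of cyclin-dependent kinases split, with 7 of 21 higher and 5 lower. AEN, a p53-induced nuclease, rose by 1.07, while the p53 target ZMAT3 fell by 0.99 on its brightest probe, with its other kept probe not called (-0.17, adjusted p = 0.481). CDKN1A, the inhibitor p21, read 3769 and 4095 in the control against 2126 and 2219.5 at 2 µg and fell by 0.85 (SE 0.12). Of 27 genes of apoptosis 7 rose and 2 fell, and without 2 µg replicate 1 the rises numbered 4. The falls numbered 0 without control replicate 1 and 1 without any 1 of the other 5 arrays. The receptor TNFRSF12A was undetected in the control and at least 2.08-fold higher, and APAF1, the core of the apoptosome, fell by 0.47, a call that ended without either control array or 2 µg replicate 1.

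IGFBP5, a binding protein of insulin-like growth factors, had the largest fall of the genes detected on all 4 arrays. It read 773 and 858 on the control arrays, against 115 and 97.3 at 2 µg. Its 2 µg values were close to the detection floor, the groups did not overlap, and it fell by 2.94 (SE 0.14), or 7.69-fold (adjusted p = 1.01e-06). The receptor IGF1R fell by 1.01 (SE 0.14), and of 7 measured genes of this pathway 3 fell and 0 rose. IGFBP7 lost its call in 5 alternatives, among them those without either control array or without 2 µg replicate 1. LAMA5, a laminin chain of basement membranes, read 2018 and 2020.2 in the control against 511 and 603 at 2 µg and fell by 1.86 (SE 0.13). The type IV collagen COL4A5 read 2197 and 1818 in the control against 513 and 763 at 2 µg and fell by 1.68 (SE 0.19), COL5A1 fell by 1.38 (SE 0.13), and COL18A1 was detected on no 2 µg array and was at least 2.83-fold lower. Of 15 collagens and basement membrane genes 14 fell and 0 rose, and in the 20 alternatives between 11 and 17 fell. The 12 detected on all 4 arrays had a median of -0.99, the lowest of the lists, and 11 of them fell. SULF2, which trims sulfates from heparan chains at the cell surface, fell by 1.74 (SE 0.18). The 11 fibroblast markers, of which 4 are collagen genes, summed to 1830 and 1760 in the control and to 1000 on both arrays at 2 µg, with 5 detected in the control and 3 or 4 at 2 µg. The defining markers PDGFRA, PDGFRB, DCN, FAP, THY1 and COL1A2 were detected on none of the 4 arrays.

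Cytoskeletal genes fell beside them. KRT19, a keratin of simple epithelia, read 514 and 538 on the control arrays, against 143 and 159 at 2 µg and fell by 1.80 (SE 0.15), and KRT8 read 1447 and 1708 in the control against 657 and 725 at 2 µg and fell by 1.19 (SE 0.14). PRPH, an intermediate filament of peripheral neurons, read 533 and 491 in the control against 162 and 173 at 2 µg and fell by 1.61 (SE 0.13). The groups were separate for all of these genes. NEFL, the light neurofilament, was detected on both control arrays and on no 2 µg array, at least 3.79-fold lower. The adjusted p of its limma fit, which used the readings and not the bound, was 1.87e-05. The alpha-tubulin TUBA1A read 934 and 778 in the control against 512 and 277 at 2 µg, a wide spread at 2 µg, and fell by 1.18 (SE 0.24). Of 26 tubulins, keratins and other filaments 14 fell and 1 rose (TUBE1, by 0.59), with a median of -0.46, and 0 rose without control replicate 2 or 2 µg replicate 1. The call of VIM ended without control replicate 2 or 2 µg replicate 2 (adjusted p up to 0.107), and that of TUBB3 without control replicate 1 or 2 µg replicate 2 (up to 0.219). The 10 epithelial markers summed to 871 and 906 in the control and to 529 and 524 at 2 µg. Only KRT19 and MUC1 of them were detected, and CDH1, the defining cadherin, was not. The 12 neuronal markers summed to 1810 and 1650 in the control and to 1420 and 1280 at 2 µg, with STMN2, GAP43 and RBFOX3 detected on none of the 4 arrays. The part of these marker lists in the falls was not tested.

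Notch signalling passes from ligands on a neighbouring cell to the receptors and then to HES and HEY repressors. HES5, a direct target, read 1074 and 1139.5 on the control arrays, against 194 and 190.5 at 2 µg, a 5.75-fold fall (log2 fold change -2.52, SE 0.13, adjusted p = 1.23e-06). The ligands DLL3 and DLL1 fell by 0.82 and 0.71, the ligand JAG2 and the modifier LFNG were detected on no 2 µg array, at least 1.62-fold and 1.59-fold lower, and the receptor NOTCH1 read 1023 and 1152 in the control against 697 and 529 at 2 µg and fell by 0.84 (SE 0.17). In each of these genes both control values were higher. HES1, the other common target, was not called (log2 fold change 0.04, SE 0.13), nor was the ligand JAG1 (0.10, SE 0.18). Of 20 measured members 9 fell and 0 rose, with a median of -0.39, and 1 rose without control replicate 2. In the TGF-beta and BMP pathway 7 of 25 fell and 5 rose, beside 20.4% lower and 22.2% higher over all members. Of the 20 detected on all 4 arrays 35% were called, 5 lower and 2 higher, against 40.2% of all such members. The inhibitor SMAD6 fell by 1.28 (SE 0.15) and the ligand BMP7 fell by 1.15 (SE 0.15), while the matrix protein TGFBI and INHBE, a subunit of activin, were undetected in the control and at least 1.75-fold and 4.5-fold higher. Without 2 µg replicate 2, 3 of this list rose.

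Chaperones of the cytosol fell in part. HSPA1B, the inducible HSP70, whose sequence its probe can share with HSPA1A, was among the brightest genes and read 21054 and 18449.9 on the control arrays, against 3939 and 3676 at 2 µg. The groups were more than 4-fold apart at every pairing, and it fell by 2.37 (SE 0.13), or 5.18-fold (adjusted p = 1.72e-06). The small heat shock protein HSPB1 read 6299.8 and 6449.7 in the control against 2369.8 and 2333 at 2 µg and fell by 1.44 (SE 0.13), and the constitutive HSPA8 read 4367 and 5888 in the control against 2509 and 2963 at 2 µg and fell by 0.90 (SE 0.17). Of 35 members 11 fell and 4 rose, and without control replicate 2 there were 7 and 1. The rises numbered 2 without control replicate 1 and 1 without 2 µg replicate 2. The chaperonin subunit CCT2 rose by 0.67, and its other measured subunits (TCP1, CCT4, CCT5, CCT6A, CCT7 and CCT8) were not called on their brightest probes, although a dimmer probe of TCP1 was called higher (0.82, adjusted p = 0.0205). In the endoplasmic reticulum 8 of 28 fell and 4 rose, beside 20.4% lower and 22.2% higher over all members. SDF2L1 fell by 0.97 (SE 0.15), PDIA4 fell by 0.67, and HSPA5, the main chaperone BiP, read 1203 and 974 in the control against 728 and 713 at 2 µg and fell by 0.59 (SE 0.14). Its adjusted p was 0.00682, and 0.0587 when control replicate 1 was left out. XBP1, a factor that raises genes for folding in that compartment, rose by 0.78. Without 2 µg replicate 2, 2 of this list rose.

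Genes of the respiratory chain were called lower more often than higher. COX6B1, a subunit of cytochrome c oxidase, read 2826 and 3236 on the control arrays, against 1441 and 1462 at 2 µg and fell by 1.06 (SE 0.13), and NDUFA3, of complex I, read 1824 and 1861 in the control against 994 and 1124 at 2 µg and fell by 0.80 (SE 0.13). For both genes the duplicates were much closer than the groups. Of 31 genes of complex I 12 fell and 1, NDUFC2, rose by 0.88, a count that was 0 without control replicate 2 or 2 µg replicate 1. Of 30 genes of complexes II to IV 11 fell and 3 rose, among them the assembly factor COX11 by 1.30. Of 15 genes of ATP synthase 5 fell and 1 rose, and 13 of the 20 alternatives gave 0 rises, among them those without control replicate 1, either 2 µg array or either 4 µg array. NDUFS1, SDHA and ATP5F1A were not called (0.16, 0.21 and 0.14). Without control replicate 2 the falls numbered 7, 7 and 3, and without control replicate 1 the falls in complexes II to IV also numbered 7. For ATP synthase, 8 fell when arrays were scaled to the median of the tested genes.

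In glycolysis and the hypoxia response 17 of 31 members fell and 3 rose, with a median of -0.45. ENO2, an enolase, read 449.8 and 519.7 on the control arrays, against 193 and 208 at 2 µg and fell by 1.27 (SE 0.13), the kinase PFKFB4 read 335 and 342 in the control against 144 and 138 at 2 µg and fell by 1.26 (SE 0.12), and the hypoxia factor EPAS1 fell by 1.25 (SE 0.12). Groups did not overlap in these genes. The glucose transporter SLC2A3 rose by 0.92 from a high level (9949 and 8097 in the control against 17458 and 16574 at 2 µg), and LDHA and ENO1 were not called (-0.06 and 0.12). Without 2 µg replicate 2, 11 fell and 1 rose, and without control replicate 2, 1 rose. Sterol and fatty acid synthesis gave 11 falls and 1 rise among 25 members (7 falls without control replicate 2, 2 rises without control replicate 1 and 0 without 2 µg replicate 2), with a median of -0.39. INSIG1, a sterol-regulated brake on this pathway, read 1391 and 1476 in the control against 369.8 and 424 at 2 µg and fell by 1.86 (SE 0.13). ACSS2, which makes acetyl-CoA from acetate, fell by 1.09 (SE 0.12), and SCD, the desaturase, fell by 0.81, while the sterol factor SREBF2 was not called (0.26) and the isoprenoid enzyme IDI1 rose by 0.45. Of 25 antioxidant genes and metallothioneins 5 rose and 5 fell, shares near the 22.2% and 20.4% of all members. NFE2L2, the factor NRF2, rose by 0.99 and the metallothionein MT1X fell by 1.00, and both counts dropped when single arrays were left out, to 2 rises without control replicate 1 or 2 µg replicate 1 and to 1 fall without control replicate 2.

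Of 24 interferon regulators and induced genes 6 rose and 6 fell, with a median of 0.00, shares near the 22.2% and 20.4% of all members. UBE2L6, the conjugating enzyme of ISG15, read 1374 and 1425 on the control arrays, against 314 and 314 at 2 µg, and BST2, which tethers budding virus particles, read 487 and 515 in the control against 116 and 116 at 2 µg. Both lost most of their signal, and they fell by 2.15 and 2.11. The membrane restriction factors IFITM1, IFITM2 and IFITM3 fell by 0.97, 0.92 and 0.82, although probes of this family can bind more than 1 of its genes. In the other direction the interferon regulators IRF1 and IRF7 rose by 1.16 and 1.05, and the induced gene IFIT2 read 209.5 and 224 in the control against 487 and 445 at 2 µg and rose by 1.10 (SE 0.13), while IFIT1 fell by 0.62. Of 18 sensors of nucleic acid and their adaptors only 5 were members, and 1 of them, the RNA helicase IFIH1, was called. It read 128 and 142 in the control against 198 and 255 at 2 µg and rose by 0.74 (SE 0.15). In antigen presentation and ISG15 conjugation 4 of 14 rose and 2 fell. The rises there numbered 1 without 2 µg replicate 2 and 2 without any 1 of the other 3 arrays of these groups.

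Published targets of the cluster's microRNAs were then read one microRNA at a time. The lists came from general knowledge of reported targets, and the share of each list lower should be read against 20.4% of all members. Of 18 measured targets of miR-23a 1 fell and 8 rose, with a median of 0.18 over the 15 on all 4 arrays. The fall was APAF1, which read 1075 and 1092 on the control arrays, against 746 and 818 at 2 µg, with no overlap between groups. It was not called without control replicate 1 or 2 or 2 µg replicate 1, nor when arrays were scaled to the median of all probes. The rises included TNFAIP3, described above, the interferon factor IRF1 and the urokinase protease PLAU. TNFAIP3 and PLAU were undetected in the control and at least 8.37-fold and 1.86-fold higher. The splicing regulator CELF1 rose by 0.59. Without 2 µg replicate 2, 4 of this list rose.

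Of 24 measured targets of miR-27a 9 fell and 5 rose, with a median of 0.02 over the 22 on all 4 arrays. SEMA6A, an axon guidance protein, read 1600.3 and 1496 on the control arrays, against 609 and 626 at 2 µg and fell by 1.33 (SE 0.13) (adjusted p = 4.39e-05). RXRA, the partner of many nuclear receptors, read 1098 and 1185 in the control against 562 and 453 at 2 µg and fell by 1.18 (SE 0.14), and HIPK2, a kinase that acts on p53, read 664 and 726 in the control against 246 and 420.3 at 2 µg and fell by 1.11 (SE 0.21). In these genes both 2 µg values were below both control values. The cholesterol exporter ABCA1 was detected on no 2 µg array and was at least 2.03-fold lower, and the metalloprotease ADAM19 and the Wnt inhibitor SFRP1 fell by 0.97 and 0.93. FADD, the adaptor of death receptors, read 899 and 971 in the control against 769 and 631 at 2 µg and had a log2 fold change of -0.42 (adjusted p = 0.0314), a call that 9 of 20 alternatives ended, among them those without control replicate 1 or 2, 2 µg replicate 2 or either 4 µg array (adjusted p up to 0.166). FOXO1, a target in the same literature, rose by 0.62. Without control replicate 2 or 2 µg replicate 2 the rises numbered 3.

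Of 31 measured targets of miR-24 5 fell and 10 rose, with a median of 0.12 over the 27 on all 4 arrays. The falls were INSIG1, NOTCH1, SCD, the kinase PAK4 and the transcription factor SP1, by 1.86, 0.84, 0.81, 0.61 and 0.53. The rises included TRIB3, E2F2 and MYC, by 2.45, 0.87 and 0.54, and ST7L, which was undetected in the control and at least 2.06-fold higher. The rises numbered 6 without either control array and 5 without 2 µg replicate 1. Several of these genes stand on other lists above and moved with them. XIAP, an inhibitor of caspases that is a reported target, had a detection p under 0.01 only on 2 µg replicate 1 (0.00946), and was not tested.

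**Figure D4:**
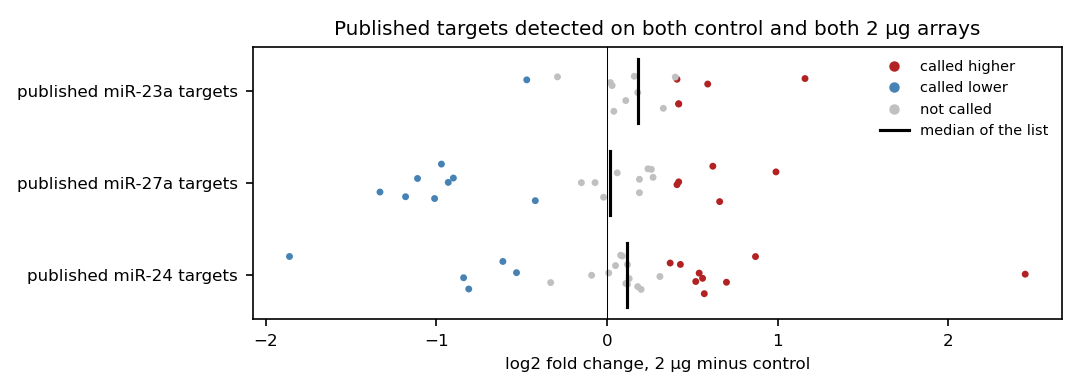
Log2 fold change (2 µg minus control, horizontal axis) of published targets of miR-23a, miR-27a and miR-24 detected on all 4 arrays. Red points were called higher, blue points called lower and grey points not called, and the black bar is the median of each list (0.18, 0.02 and 0.12).

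Genes of the microRNA machinery were called in both directions. TNRC6B, which links Argonaute to the enzymes that remove poly(A) tails, read 981 and 780.1 in the control against 441 and 332 at 2 µg and fell by 1.19 (SE 0.17). AGO3 read 268 and 214 in the control against 400.5 and 464 at 2 µg and rose by 0.85 (SE 0.15), AGO1 fell by 0.41, and AGO2, the Argonaute that can cut its target, was not called (0.02, SE 0.16). The nucleases DROSHA and DICER1 were not called either (-0.37 and 0.14). Of 16 members 6 rose and 2 fell, beside 22.2% higher and 20.4% lower over all members. The rises numbered 2 without either control array and 3 without 2 µg replicate 2, where 1 fell.

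The dose was compared between 2 µg and 4 µg without using the control arrays. Of all tested genes 8.98% differed between the doses, 5.33% higher and 3.65% lower at 4 µg, and of the 6862 members on all 4 arrays 532 did (7.75%), 290 higher (4.23%) and 242 lower (3.53%) at 4 µg. Several of the largest falls at 2 µg were less deep at 4 µg. IGFBP5 read 115 and 97.3 at 2 µg against 348 and 306 at 4 µg, a log2 difference of 1.63 (SE 0.14, adjusted p = 0.00118), HSPA1B read 3939 and 3676 at 2 µg against 9268 and 9877 at 4 µg (1.33, SE 0.13), and LAMA5 read 511 and 603 at 2 µg against 1267 and 1203 at 4 µg (1.15, SE 0.13). The doses did not overlap in these genes. HOXC4, a homeobox factor that fell by 1.34 at 2 µg, read 749.5 and 784 in the control against 273 and 337 at 2 µg and 649 and 881 at 4 µg, where it was back in the range of the control. S100A4 encodes a calcium-binding protein, and of its kept probes the brightest was not called at 2 µg against control while the other was lower (-0.42, adjusted p = 0.0381). The brightest read 103 and 105 at 2 µg against 311 and 244 at 4 µg, a difference of 1.40 (SE 0.15).

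Other genes were lower at 4 µg than at 2 µg. SLC7A5 read 4977 and 3880.5 at 2 µg against 1985 and 2169.6 at 4 µg (-1.08, SE 0.15) and C11orf96 read 1741 and 1632 at 2 µg against 808 and 736 at 4 µg (-1.13, SE 0.14). ARRDC4, an arrestin-like protein raised by glucose, read 191 and 211 in the control against 320 and 334 at 2 µg and 144 and 139 at 4 µg (-1.21, SE 0.13). It was thus above the control at 2 µg and below it at 4 µg. Its relative TXNIP read 2501 and 2236 at 2 µg against 1164 and 1089 at 4 µg (-1.07, SE 0.13), and MTMR2, a lipid phosphatase, was not called at 2 µg and read 546 and 503 at 2 µg against 231 and 264 at 4 µg (-1.09, SE 0.14). Leaving out 4 µg replicate 1 or 2, or 2 µg replicate 1, cut the members that differed between doses from 695 of 7775 to 92, 114 and 226.

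**Figure D5:**
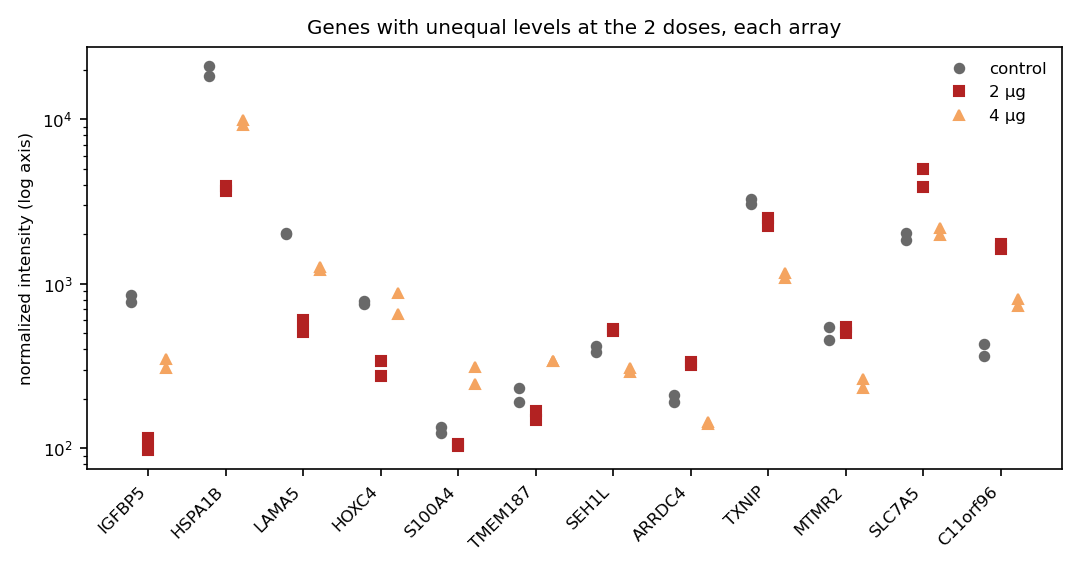
Normalized intensity on each of the 6 arrays (vertical log axis) for 12 genes whose levels differed between the doses. Grey circles are control, red squares 2 µg and orange triangles 4 µg arrays. IGFBP5, HSPA1B and LAMA5 lie between control and 2 µg at the higher dose, while ARRDC4 and SEH1L lie above the control at 2 µg and below it at 4 µg.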

How the data were processed

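Total RNA of HEK293T cells was amplified, labelled with biotin and read on Illumina Human-6 bead arrays, per the labels' protocols. The submitters' processing notes name BeadStudio (version not given in the sources used here). One deposited table holds each probe's mean bead intensity on each array, with no normalization per the file headers. The same table holds a detection p-value, per the file headers, for every probe on every array. The processed intensity that the authors deposited followed a straight line on the scanner intensity within each array, with a mean of 238.3 on every array and medians from 12.2 to 14.1, and served as an alternative only.

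The platform table gave 1 symbol for 23687 probes, several for 35 and none for 24979, and no gene was named from a probe with several. Scanner intensities went through neqc of limma 3.58.1 under R 4.3.3, which estimates background from the detection p-values, adds an offset of 16, applies quantile normalization and takes log2. Probes with detection p under 0.01 on both arrays of any group were kept (10021, of which 8455 had 1 symbol), and the brightest kept probe stood for each gene. All 6 arrays in 3 groups were fitted by lmFit and eBayes (3 residual and 7.48 prior degrees of freedom), with two-sided tests. Where a gene was detected on no array of a group, its fold is a lower bound against the lowest detected signal of each array. Its call and adjusted p come from the fit to the normalized values, not from the bound. P-values and SEs rest on the spread between duplicates, pooled over the 3 groups and drawn toward that of the other genes. The small number of arrays limits all precision. For 346 members with several kept probes, all probes were called in 1 direction for 65 and in opposite directions for 3 (BTBD7, MRPL43 and SDHAP1).

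Named genes were the 15 largest rises and falls on all 4 arrays with no overlap between groups, the 6 largest bounds each way, the 4 smallest p of each list, 5 each way for the dose difference, and always ACTB, GAPDH, HSPA5, DDIT3, TRIB3, FADD and XIAP. Other genes named in the text were chosen as examples of their list after their values were seen. The comparison, its lists and named genes were chosen with earlier results of these data known, and the lists carry no test of their own. The fit was tested on simulated data with known changes. Promoter windows and microRNAs came from RefSeq tables. Alternatives covered normalization, background, detection filter, probe choice, arrays fitted, adjustment, variance model, a replicate block and leaving out each array.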

Additional observations from a re-analysis of the deposited data

Results flagged for a closer look

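Of the 1455 members called against the control at both doses, 3 moved in opposite directions, and the doses themselves differed in limma for each of them. The contrasts with the control share the control arrays, so the values are given side by side. ARRDC4 was higher than the control at 2 µg (log2 fold change 0.70, adjusted p = 0.00142) and lower at 4 µg (-0.50, adjusted p = 0.0178), and the difference of 4 µg minus 2 µg was -1.21 (adjusted p = 0.00127).

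SEH1L, a nucleoporin, read 416 and 382 on the control arrays, against 531 and 513 at 2 µg and 291 and 305 at 4 µg. Its log2 fold change was 0.39 at 2 µg and -0.42 at 4 µg, and the doses differed by -0.81 (adjusted p = 0.00619). TMEM187, a membrane protein, read 233 and 189 on the control arrays, against 168 and 148 at 2 µg and 339 and 339.8 at 4 µg. It went the opposite way, with -0.41 at 2 µg and 0.69 at 4 µg, and the doses differed by 1.11 (adjusted p = 0.00348). In all 3 genes the 3 groups did not overlap. No group had more than 2 arrays, so single outlying arrays were not tested.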

How the results depend on the processing

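Across 20 alternatives, chosen with earlier results known, the members called at 2 µg against control ranged from 2447 (without control replicate 2) to 3500 (variance model with trend and robust), and those on all 4 arrays from 1957 to 2995, against 3307 and 2760. No gene was called in the opposite direction to its reported call under any of them. For the 2 µg comparison, leaving out either 4 µg array gave the same counts as fitting only the 4 arrays of these groups. Counts of alternatives out of 20 therefore hold that analysis repeatedly. The share of calls that were higher ran from 47.6% (median scaling over the tested genes) to 59% (the authors' processed values), against 52.1%. Of 187 named genes called, 170 kept their call in every alternative run and 17 lost it in at least 1. The labels do not say that a replicate number pairs arrays, and deviations of same-numbered arrays correlated at -0.06 between control and 2 µg; with the replicate number as a block 3294 members were called. The comparison of the doses was the least stable. With no detection filter 284 members differed against 695, and leaving out 1 array at a time gave 92 to 522; the cause was not tested. Genes detected on no array of 1 group have only a bound, against detection floors of 85.9 to 91.8. Genes detected on 1 array of a group, such as ETV5 and IL32, keep a full fold change. For both of these genes a control reading lay under the floor.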

Other observations

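Lysosomal and autophagy genes, splicing factors and common reference genes were also measured. Of 33 lysosome and autophagy genes 8 rose and 9 fell, beside 22.2% higher and 20.4% lower over all members. The cathepsin CTSZ read 373 and 493 in the control against 200.2 and 278 at 2 µg and fell by 0.86 (SE 0.18), and the peptidase TPP1 fell by 0.83. CD68, a lysosomal membrane protein that macrophages express strongly, rose by 0.78, as did the autophagosome gene GABARAPL1, by 0.59, and TFE3, a transcription factor of lysosomal genes, was detected at 2 µg and on no control array. The rises numbered 4 without control replicate 2 and 5 without any 1 of the other 3 arrays of these groups, and the falls 5 without control replicate 2. Of 30 SR and hnRNP splicing factors and their kinases 6 rose and 0 fell. HNRNPDL, an RNA-binding protein, read 578 and 638 in the control against 1791 and 1777 at 2 µg on its brightest probe and rose by 1.56 (SE 0.13), but its other kept probe was not called (0.10, adjusted p = 0.667). Without 2 µg replicate 1, 1 of this list fell. The kinase CLK1, which phosphorylates SR proteins, rose by 0.70.

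Of 22 genes often used as references 4 fell and 0 rose, beside 20.4% lower and 22.2% higher over all members. ACTG1, a cytoplasmic actin, read 374 and 303 in the control against 203 and 140.5 at 2 µg and fell by 1.00 (SE 0.19), and GAPDH read 4494 and 4787 in the control against 3369 and 2441 at 2 µg and fell by 0.69 (SE 0.16). ACTB read 29767 and 25913 in the control against 25437 and 25437 at 2 µg and was not called (-0.13, SE 0.14). PGK1 and TUBB fell by 0.60 and 0.61. When arrays were scaled to the median of the tested genes 7 of this list fell, and with no background correction 8 did.

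Among members on all 4 arrays, calls on chromosome X were 34 higher and 68 lower. On chromosome 4 they were 64 higher and 34 lower, beside 1465 and 1295 over all such members. Both chromosomes are shown for their uneven split, with the counts of every chromosome known. On each of them the share called in either direction was near the 40.2% of all such members. SNHG15, a host transcript of a small nucleolar RNA, which encodes no known protein, read 1242 and 1333 in the control against 5323 and 5374 at 2 µg and rose by 2.06 (SE 0.13). The chromosome counts carry no test.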
